A study of Saccharomyces cerevisiae with 12 samples.

Results

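The genes described here encode proteins of the yeast mitochondrial ribosome. They were chosen by name: a gene was taken where its symbol was MRPL, MRPS, MRP or RSM followed by a number. That pattern found 66 genes among the 6345 yeast features of the expression table, and all 66 passed the filter on low values used for testing. The table's own descriptions call 64 of them mitochondrial ribosomal proteins. MRPS12 is described there only as a mitochondrial protein, with the name of a putative subunit among its synonyms. MRP8 is described as a protein of unknown function, so the name pattern takes at least 1 gene that its annotation does not place in the ribosome.

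The mitochondrial ribosome is the machine that translates the few mRNAs made from mitochondrial DNA, most of which encode membrane-embedded subunits of the respiratory chain and the ATP synthase. Apart from Var1, its proteins are encoded in the nucleus, made on cytosolic ribosomes and imported. Many descend from bacterial ribosomal proteins, whereas others have no bacterial counterpart and were added during the evolution of mitochondria. By their names in the unified ribosomal nomenclature, 37 of the 66 genes encode large-subunit proteins (23 with a bacterial homologue, 14 without) and 28 are counted with the small subunit (17 with, 10 without). The last of those 28 is RSM22, a relative of methyltransferases that has no unified name and was left unplaced, as was MRP8.

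The samples were budding yeast, *Saccharomyces cerevisiae*, of engineered D452-2 strains in mid-exponential growth. One strain carried the plasmid pRS316-NC, with the endogenous version of cdt-1, a cellodextrin transporter gene of *Neurospora crassa*. The other carried pRS316-OPT, with a codon-optimized cdt-1. The table describes both versions as tagged with GFP at the C-terminus. Both strains thus share the parent, the plasmid backbone and a foreign membrane transporter, and there is no strain without cdt-1 among them. The sources used here do not say what else was engineered in D452-2 or name the growth medium. The comparison is of 3 mRNA libraries from each strain, called NC and OPT, which the design text describes as biological replicates. The series also has 6 libraries of ribosome footprints, not analysed here, and the values below are mRNA levels that say nothing of translation.

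Levels are the deposited normalized RPKM. RPKM in general scales reads by length and library size, but the sources used here do not state how these values were normalized. The steps between low values put the depth at an estimated 23600000 to 43400000 reads per library. The cdt-1 rows went with the labels: the endogenous version was at 506 to 567 RPKM in NC and listed at 0 in OPT, and the optimized version was at 420 to 557 in OPT and listed at 0 in NC. Rows with ribosomal RNA names made up 0.156 to 0.411% of the total in NC, 1.06 and 1.30% in OPT replicates 1 and 2 and 0.174% in OPT replicate 3. When limma weighted the libraries by how closely they followed the fit, NC replicate 3 had the lowest weight, 0.224, against 0.703 to 2.09 for the other 5. Since the values are shares of a total, less mRNA of a gene per cell and more of other mRNAs cannot be told apart.

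As a group, mitochondrial ribosomal protein mRNAs stood at close to the same level in the 2 strains. Of the 66, 2 rose and 4 fell in OPT. The risers were RSM7 and MRPL4, and MRP2, MRPL32, MRPL50 and MRPL7 fell, by less than 1.5-fold in every case. The test was limma on log2(RPKM + 1) over all 5982 yeast features, with a call at a Benjamini-Hochberg adjusted p under 0.05. The background was 19.1% of all features called (5.38% higher and 13.8% lower in OPT), against 9.09% of the 66 (3.03% and 6.06%). The libraries of the strains did not overlap in 15 of the 66 genes (6 higher, 9 lower), or 22.7%, beside 40.7% of all features. An unadjusted limma p under 0.05 was found for 9 of the 66, beside 34.7% of all features.

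The sizes of the differences were small across the set. The median gene differed by 0.067 on the log2 scale in either direction, beside 0.161 for all features, and 62 of the 66 (93.9%) differed by less than 0.25, beside 67.3% of all features. The signed median was -0.023 (OPT minus NC), with 25 genes above 0 and 41 below, and over all features it was -0.061. The sign of the median changed with the scale: it was 0.037 with equal library medians, with 45 genes above 0, and 0.043 with quantile normalization, with 46 above. The 95% interval of a gene's difference had a median half-width of 0.172. For the 60 genes without a call, the intervals reached from -0.40 at the lowest to 0.59 at the highest, so a 2-fold change lay outside the interval of each. The added 1 RPKM makes changes of low genes look slightly smaller on this scale.

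**Figure D1:**
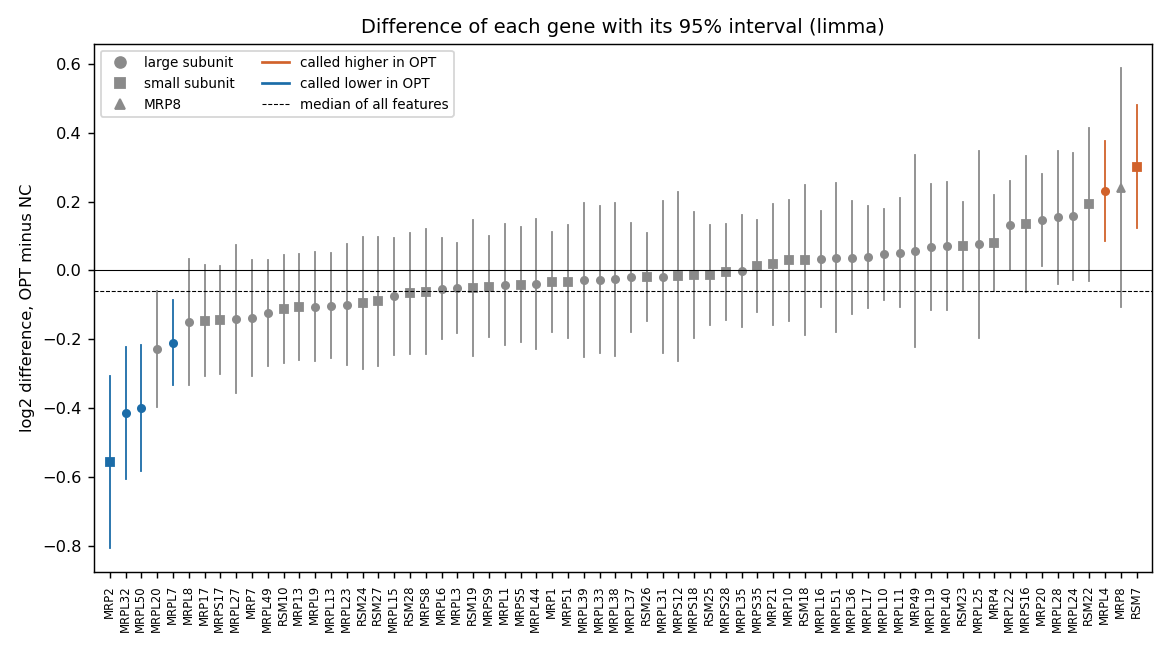
Log2 difference, OPT minus NC, of each of the 66 genes (vertical axis) with its 95% interval from limma, ordered by size along the horizontal axis. Circles are large-subunit genes, squares small-subunit genes and the triangle MRP8. The 2 called rises are orange, the 4 called falls blue, and the dashed line at -0.06 is the median of all features.

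**Figure D2:**
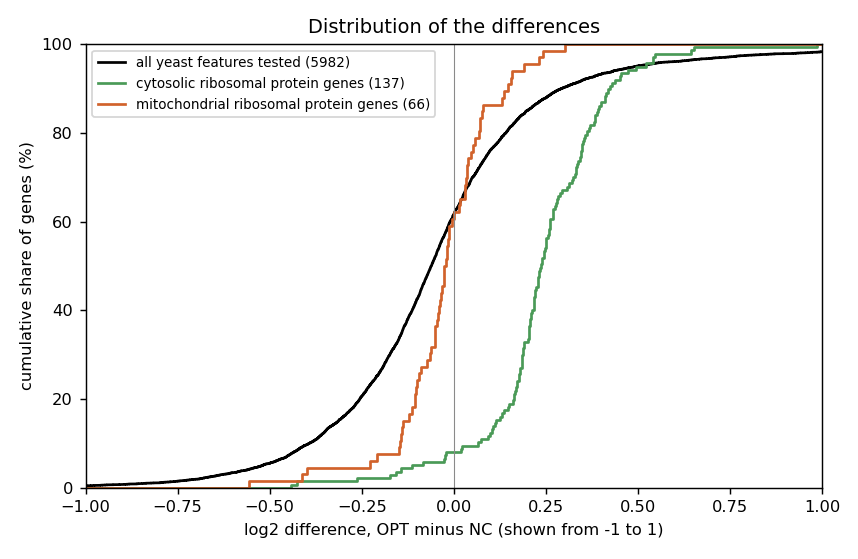
Cumulative share of genes in percent (vertical axis) against the log2 difference, OPT minus NC (horizontal axis, shown from -1 to 1). The curve of the 66 mitochondrial ribosomal protein genes is steeper than that of all 5982 features and crosses 0 near the same height, while that of 137 cytosolic ribosomal protein genes lies to the right.

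Levels within the set differed far more between genes than between strains. Over the 6 libraries the mean level had a median of 75.3 RPKM and quartiles of 55.6 and 106. It ran from 24.4 for RSM22 to 408 for MRP8, a 16.8-fold range, with an unplaced gene at each end. Among the 64 placed genes it ran from 35.4 for MRPL4 to 306 for MRPS12. Between 50 and 150 RPKM lay 48 of the 66 genes, 13 were lower and 5 were higher. RPKM in general is per length, but how these values were counted and normalized is not stated. Comparisons of level between genes thus rest on the values as deposited. The genes were short, with a median annotated span of 706.5 nucleotides against 1227 for protein-coding genes of the table, and the shorter ones had higher levels. Spearman's rho between span and mean level was -0.66 across the 66 genes and -0.38 across 5761 protein-coding genes tested. These are descriptions across genes that share the same libraries, and length is also the divisor of RPKM.

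The 5 most abundant genes were MRP8, MRPS12, RSM10, MRPS16 and MRPL51. MRP8 stood at 305, 451 and 372 RPKM in NC and at 461, 403 and 456 in OPT. The strains overlapped, and NC replicate 1 was lowest. Its log2 difference of 0.24 had a standard error of 0.15, the widest of the 66 (adjusted p = 0.29).

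MRPS12, which encodes uS12m, the counterpart of the bacterial decoding-centre protein S12, stood at 278, 293 and 354 RPKM in NC and at 318, 296 and 296 in OPT. Its groups overlapped, with both the lowest and the highest value in NC, and the log2 difference was -0.02. RSM10, for uS10m of the small subunit, stood at 224, 231 and 222 in NC and at 218, 198 and 209 in OPT. All 3 OPT values of RSM10 were below all NC values, but the difference of -0.11 did not pass (adjusted p = 0.272). MRPS16, for bS16m, stood at 161, 173 and 186 in NC and at 206, 182 and 183 in OPT. MRPL51, for mL43, a large-subunit protein with no bacterial counterpart, stood at 151, 144 and 169 in NC and at 173, 150 and 153 in OPT. Both overlapped between strains, with log2 differences of 0.14 and 0.04. The span of MRPL51 overlaps the annotated YPR099C, so its value is uncertain, as is that of MRP4 beside YHL005C and of MRPL19 beside YNL184C, because the sources used here do not state whether counting used strand.

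The 5 least abundant were RSM22, MRPL4, RSM23, MRPL24 and MRPL3. RSM22 stood at 22.4, 25.7 and 20.1 RPKM in NC and at 26.1, 26.5 and 25.3 in OPT. Only NC replicate 2 reached the OPT range, and the log2 difference of 0.19 did not pass (adjusted p = 0.197). RSM23, for mS29, a GTP-binding protein of the small subunit related to mammalian DAP3, stood at 36.5, 36.6 and 37.7 in NC and at 37.8, 39.1 and 39.6 in OPT. MRPL24, for bL28m, stood at 38.3, 40.2 and 35.6 in NC and at 46.1, 41.1 and 40.4 in OPT. In both genes each OPT value was above each NC value, by little, and neither difference passed (0.07 and 0.16, adjusted p = 0.388 and 0.201). MRPL3, for mL44, a relative of ribonuclease III, stood at 40.9, 43.1 and 42.0 in NC and at 40.7, 41.4 and 39.4 in OPT, with overlap and a difference of -0.05.

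**Figure D3:**
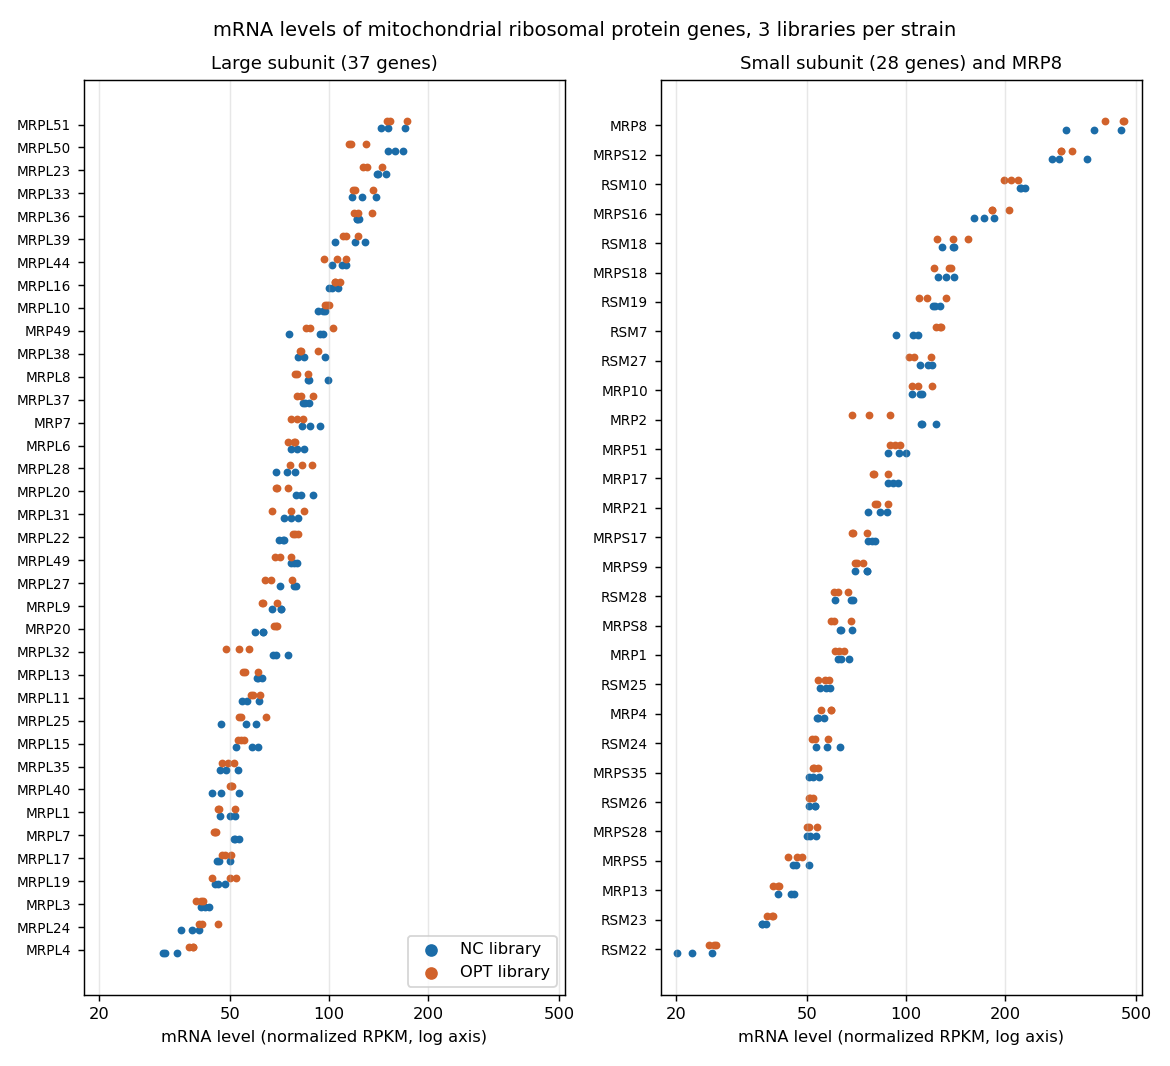
Level of each gene in each library in normalized RPKM (horizontal log axis), with genes in order of their mean (vertical axis), large subunit on the left and small subunit with MRP8 on the right. Blue points are the 3 NC libraries and orange points the 3 OPT libraries. Mean levels run from RSM22 at 24.4 to MRP8 at 408, both unplaced, and among the placed genes from MRPL4 at 35.4 to MRPS12 at 306. The points of the strains lie on top of each other for most genes.

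The largest rise was in the small subunit. RSM7 encodes uS7m, whose bacterial counterpart S7 binds the ribosomal RNA of the head of the small subunit and starts its assembly. RSM7 (chromosome X, 638232 to 638975, minus strand) stood at 93.5, 105 and 109 RPKM in NC and at 128, 123 and 127 in OPT. Every OPT value was above every NC value, and the OPT values lay closer together. The means were 103 ± 8.10 and 126 ± 2.51 (SD, n = 3), a 1.23-fold rise, or 0.30 ± 0.07 (SE) on the log2 scale (limma adjusted p = 0.035). The call of RSM7 was lost without NC replicate 1 or 2 or any OPT replicate (adjusted p up to 0.115), while the difference ranged from 0.24 to 0.39 over the 14 alternative settings.

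The other rise was in the large subunit. MRPL4 encodes uL29m, whose bacterial counterpart L29 lies beside the exit of the peptide tunnel. MRPL4 (chromosome XII, 1014491 to 1015450, plus strand) stood at 31.6, 34.6 and 31.4 RPKM in NC and at 37.6, 38.7 and 38.7 in OPT. The groups did not overlap. The means of 32.5 ± 1.76 and 38.3 ± 0.664 (SD, n = 3) differed by 0.23 ± 0.06 (SE) on the log2 scale (limma adjusted p = 0.0429). This call stood just inside the threshold and ended without NC replicate 1, without any OPT replicate and with a common prior variance (adjusted p up to 0.159).

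The largest fall was in the small subunit too. MRP2 encodes uS14m, the counterpart of bacterial S14, a protein of the head of the small subunit. MRP2 (chromosome XVI, 876282 to 876629, minus strand) stood at 112, 111 and 123 RPKM in NC and at 89.7, 77.2 and 68.7 in OPT. The lowest NC value was well above the highest OPT value, and OPT spread more widely. The means were 115 ± 6.61 and 78.5 ± 10.5 (SD, n = 3). The level in OPT was 0.681 times that in NC, a log2 difference of -0.56 ± 0.11 (SE; limma adjusted p = 0.0149), and the call ended without OPT replicate 2 (adjusted p = 0.0681).

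In the large subunit 3 genes fell. MRPL32 encodes bL32m, a protein that in yeast is cut to its mature form by the m-AAA protease of the inner membrane before it joins the ribosome. MRPL32 (chromosome III, 118620 to 119171, plus strand) stood at 67.7, 69.2 and 75.3 RPKM in NC and at 57.1, 53.2 and 48.5 in OPT, with no overlap. The log2 difference was -0.41 ± 0.08 (SE; limma adjusted p = 0.0161).

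MRPL50, for bL9m, the counterpart of bacterial L9 (chromosome XIV, 669774 to 670193, minus strand), stood at 158, 151 and 167 RPKM in NC and at 129, 116 and 115 in OPT. Here too the groups did not overlap, and OPT replicate 1 lay nearest to NC. The log2 difference was -0.40 ± 0.08 (SE; limma adjusted p = 0.0153). The calls of MRPL32 and MRPL50 ended without OPT replicate 2 or 3 (adjusted p up to 0.0715 and 0.0783).

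MRPL7 encodes uL5m, whose bacterial counterpart L5 belongs to the central protuberance of the large subunit. MRPL7 (chromosome IV, 936615 to 937493, plus strand) stood at 51.4, 53.1 and 51.8 RPKM in NC and at 44.9, 44.6 and 45.2 in OPT. Both groups were tight, and they did not overlap. The log2 difference was -0.21 ± 0.05 (SE; limma adjusted p = 0.0339). The call was lost with equal library medians, with quantile normalization, without NC replicate 1 or 2 and without any OPT replicate (adjusted p up to 0.146).

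Just outside the threshold stood MRPL20, for mL58, a large-subunit protein with no bacterial counterpart. It was at 82.4, 79.2 and 89.1 RPKM in NC and at 75.2, 68.8 and 69.5 in OPT, without overlap, with a log2 difference of -0.23 (limma adjusted p = 0.0658). The next by adjusted p, MRP20 and MRPL22, were 0.15 and 0.13 higher in OPT without overlap (adjusted p = 0.115 and 0.139). MRP20 encodes uL23m and MRPL22 uL22m, whose bacterial counterparts line or border the peptide exit tunnel. Both were called with quantile normalization and in no other of the settings tried.

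Set against the median of the 66 genes in the same library, which takes out the scale of the library, RSM7 was at 1.25, 1.36 and 1.39 times that median in NC and at 1.67, 1.75 and 1.85 in OPT. MRP2 moved the other way, from 1.49, 1.43 and 1.56 times the median in NC to 1.17, 1.10 and 1.00 in OPT. MRPL32 was at 0.903, 0.892 and 0.957 in NC and at 0.743, 0.754 and 0.705 in OPT, and MRPL50 at 2.11, 1.94 and 2.13 against 1.68, 1.65 and 1.67. MRPL4 was at 0.422, 0.446 and 0.399 against 0.488, 0.549 and 0.563. None of these 5 overlapped between strains on this scale either. They were picked by the test on the same libraries, so this adds no separate evidence. The share of all features without overlap was not computed on this scale. MRPL7 was at 0.685, 0.685 and 0.659 in NC and at 0.584, 0.633 and 0.658 in OPT, so that OPT replicate 3 was nearly level with NC replicate 3.

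**Figure D4:**
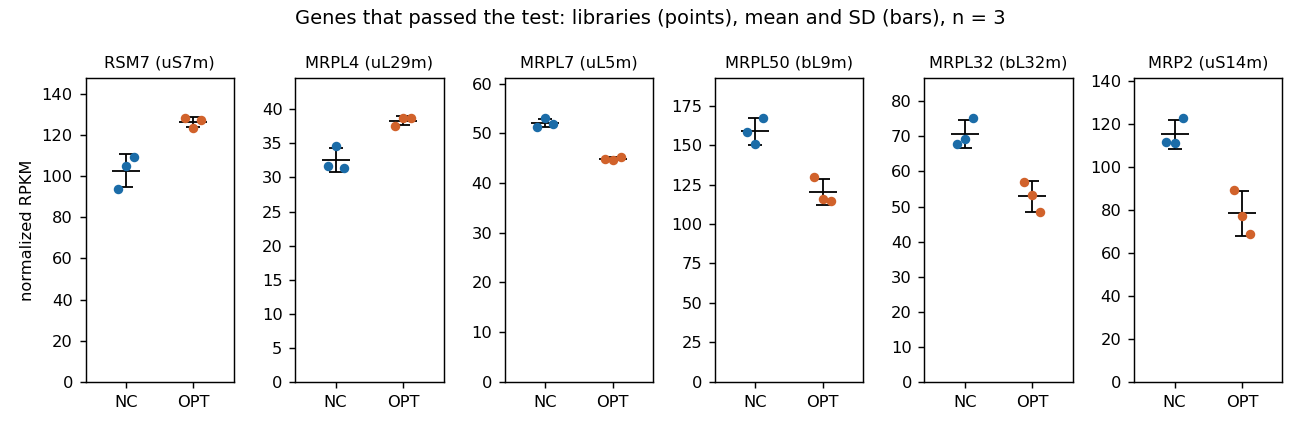
Normalized RPKM (vertical axes, each from 0) of the 6 genes that passed the test, in the 3 NC libraries (blue) and the 3 OPT libraries (orange). Points are libraries, and bars give the mean and SD with n = 3. RSM7 and MRPL4 are higher in OPT and MRPL7, MRPL50, MRPL32 and MRP2 lower, with no overlap.

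The calls fell in both subunits, and all 6 were in genes with a bacterial homologue. Of 37 large-subunit genes 1 rose and 3 fell (10.8%), and of 28 small-subunit genes 1 rose and 1 fell (7.14%), beside 19.1% of all features called. The signed median was -0.03 in each subunit. With equal library medians it was 0.035 in each, and with quantile normalization 0.049 in the large and 0.041 in the small subunit. Of the 40 genes with a bacterial homologue 2 rose and 4 fell (15%, also under the background). Of the 24 without one none was called by limma, and 1 had an unadjusted p under 0.05, beside 34.7% of all features. The signed medians of these classes were -0.03 and -0.02, and whether they differ in how often they were called was not tested. Among the 24 the largest differences in either direction were those of MRPL20 (-0.23) and MRPL28 (0.15), for mL58 and mL40.

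Of the members set by name, MRP1, for mS43, a small-subunit protein with no bacterial counterpart and a relative of manganese superoxide dismutase, stood at 63.4, 67.2 and 62.0 RPKM in NC and at 64.7, 62.5 and 60.8 in OPT. The groups overlapped, and the 95% interval of the log2 difference was -0.18 to 0.11. MRP51, for bS1m, linked in yeast genetics to the untranslated leaders of mitochondrial mRNAs, stood at 88.5, 100 and 95.3 in NC and at 95.7, 89.1 and 92.4 in OPT, with an interval of -0.20 to 0.13. MRPL36, for bL31m of the large subunit, stood at 121, 122 and 123 in NC and at 135, 122 and 119 in OPT, with an interval of -0.13 to 0.20. In all 3 genes the difference was smaller than the spread between replicates.

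Subunit balance was alike in every library. The median large-subunit gene stood at 74.7, 78.3 and 78.3 RPKM in NC and at 77.2, 70.9 and 68.7 in OPT. The median small-subunit gene stood at 73.5, 76.4 and 77.5 in NC and at 75.2, 69.5 and 68.6 in OPT. Their ratio lay between 1.00 and 1.03 in all 6 libraries. The 66 genes together took 0.570, 0.609 and 0.609% of all RPKM in NC and 0.623, 0.571 and 0.572% in OPT. The means were 0.596 ± 0.0228% and 0.589 ± 0.0294% (SD, n = 3) and differed by less than either SD.

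Libraries of the same strain also differed. The median gene of the set lay 0.06 above its mean over 6 libraries in OPT replicate 1 and 0.06 below it in OPT replicate 3, with -0.04, 0.05 and 0.03 in NC replicates 1, 2 and 3 and -0.04 in OPT replicate 2. OPT replicate 1 held the highest value of 24 genes and the lowest of none, whereas OPT replicate 3 held the lowest of 27 and the highest of 3. The coefficient of variation between libraries of a strain had a median of 5.18% in NC and 5.49% in OPT. The value with the fewest reads, 1 of MRPL19, rested on an estimated 563, which gives a counting error of 4.21% on its own. The median SD within strains was 0.080 on the log2 scale, beside 0.110 for all features and 0.102 for the 4134 features whose mean lay within the range of the set.

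**Figure D5:**
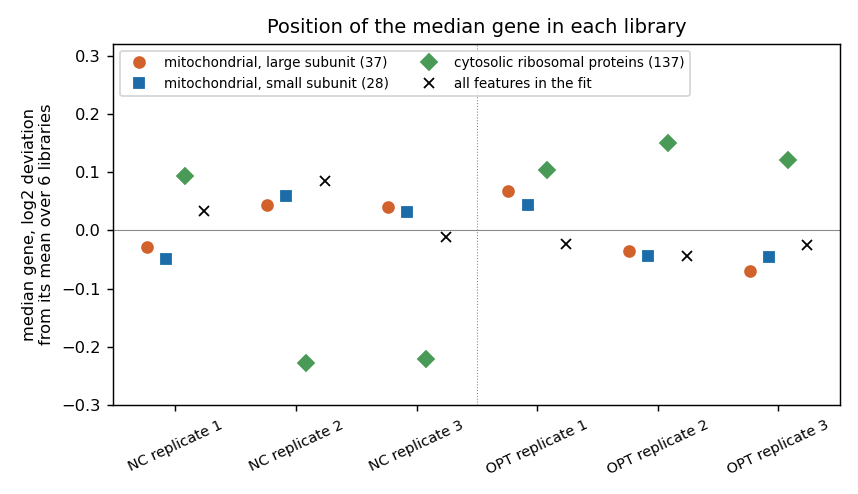
Median over genes of the log2 deviation from each gene's mean over 6 libraries (vertical axis), in each library (horizontal axis), for large-subunit and small-subunit genes of the mitochondrial ribosome, cytosolic ribosomal protein genes and all features in the fit. Both mitochondrial subunits stay between -0.07 and 0.07 and have the same sign in each library, while the cytosolic genes lie at -0.23 and -0.22 in NC replicates 2 and 3 and between 0.09 and 0.15 in the other 4 libraries.

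Cytosolic ribosomal protein genes, the set most like this one in function, had a signed median of 0.24 (0.11 with quantile normalization and 0.30 with equal library medians). By the same test 11 of 137 were higher and 2 lower in OPT, or 9.49% called beside 19.1% of all features. The called share alone hides a wider shift, with 126 of the 137 above 0 and 11 below. All OPT values lay above all NC values in 61 of the 137 and below them in 5. Over all features those shares were 13.1% and 27.6%. Their median deviation from the mean over 6 libraries was 0.09 in NC replicate 1, beside 0.10 to 0.15 in OPT and -0.23 and -0.22 in the other NC libraries. Their summed RPKM was 24.7, 18.6 and 18.8 times that of the mitochondrial set in NC and 22.5, 25.3 and 24.7 times in OPT. The strains overlapped in this ratio. Many cytosolic genes come in near-identical pairs whose reads may be split, which limits their single values.

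The 66 genes were spread over 14 of the 16 nuclear chromosomes of the RefSeq annotation of build R64, with 12 on chromosome IV and 35 on the plus strand against 31 on the minus strand. A single pair were neighbours among protein-coding genes, MRPS12 and RSM19 on chromosome XIV, both on the minus strand. RSM19, for uS19m, was at 121, 127 and 123 RPKM in NC and at 132, 110 and 116 in OPT. It thus stood well below its neighbour MRPS12 in all 6 libraries, and its log2 difference of -0.05 was likewise without a call.

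Names outside the pattern belong to 15 further genes of the mitochondrial ribosome or its vicinity, such as IMG1, RML2, NAM9 and PET123. None of the 15 was called by limma, beside 19.1% of all features, and 2 had an unadjusted p under 0.05, beside 34.7%. Their log2 differences ran from -0.16 to 0.20, with a median of -0.06. MNP1, for bL12m, the stalk protein that recruits translation factors, was the most abundant. It stood at 139, 142 and 140 RPKM in NC and at 132, 123 and 124 in OPT, with no overlap (log2 difference -0.15, adjusted p = 0.123). VAR1, the ribosomal protein gene of mitochondrial DNA, was listed at 0.34 to 0.59 RPKM in all 6 libraries, under the filter for testing.

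Other genes of mitochondrial translation were read against the same background of 19.1% called. Of 11 genes for translation factors and peptide release, 1 rose and 1 fell (18.2%, near the background). YLR281C, which RefSeq names RSO55, a relative of mitochondrial release factors, rose from 39.5, 38.2 and 42.5 RPKM in NC to 54.8, 52.4 and 57.4 in OPT. Its log2 difference was 0.44 ± 0.07 (SE; limma adjusted p = 0.00746), and it was called in all 14 alternative settings. YOL114C, listed as PTH4, fell from 10.9, 13.2 and 13.6 to 9.74, 9.13 and 9.60 (log2 difference -0.36, adjusted p = 0.0443), and was called in 8 of the 14. TUF1, the elongation factor that brings aminoacyl-tRNA to the mitochondrial ribosome, was 0.09 lower and did not pass (adjusted p = 0.461).

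Of 15 activators of single mitochondrial mRNAs 1 fell (6.67%). PET54, which in yeast serves translation of cytochrome c oxidase mRNA, went from 61.5, 64.8 and 68.3 RPKM in NC to 54.3, 51.0 and 51.3 in OPT (log2 difference -0.31, limma adjusted p = 0.02), a call kept in 9 of 14 alternative settings. None of 13 mitochondrial aminoacyl-tRNA synthetases was called by limma, and none had an unadjusted p under 0.05, beside 34.7% of all features. Their most abundant member, MSW1, for tryptophan, was 0.14 lower. None of 11 assembly factors and ribosomal RNA enzymes was called either (1 at an unadjusted p under 0.05, beside the same 34.7%). MDM38, which helps to hold the ribosome at the inner membrane, was the most abundant of them and 0.21 lower (adjusted p = 0.0851).

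Among 7 genes of mitochondrial transcription and regulation none was called by limma, and 3 had an unadjusted p under 0.05. The shares over all features were 19.1% and 34.7%. PUF3, whose product binds the 3′ ends of many nuclear mRNAs for mitochondrial proteins, including ribosomal ones, stood at 9.81, 7.21 and 8.04 RPKM in NC and at 10.1, 11.7 and 10.9 in OPT. The groups did not overlap, but the log2 difference of 0.35 did not pass (adjusted p = 0.0864). HAP4, the activating subunit of the regulator of respiratory genes, stood at 91.4, 79.1 and 63.6 in NC and at 92.4, 96.8 and 91.5 in OPT. The strains nearly touched, and the difference of 0.27 did not pass (adjusted p = 0.178).

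The import machinery, through which these proteins enter the organelle, had 3 of 21 genes lower and none higher. TOM22, a receptor of the outer membrane, stood at 245, 267 and 284 RPKM in NC and at 225, 208 and 203 in OPT (log2 difference -0.32, limma adjusted p = 0.0372). TOM7, a small subunit of the same complex, fell by 0.38 (adjusted p = 0.0426), and TIM17, of the inner-membrane channel, fell by 0.29 (adjusted p = 0.0366). These calls were kept in 9, 4 and 8 of 14 alternative settings. At 14.3%, the called share of the import list was near the 13.8% of all features called lower. All OPT values lay below all NC values in 11 of the 21 genes and above them in 0. Over all features those shares were 27.6% and 13.1%. The signed median of the list was -0.10, with 18 genes below 0 and 3 above, beside -0.06 for all features.

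Transcripts of mitochondrial DNA had low values, with ATP8 listed at 0 in all 6 libraries and VAR1 as given above. COX1, which encodes a cytochrome c oxidase subunit, was at 0.24, 0.31 and 0.46 RPKM in NC and at 1.77, 2.63 and 0.47 in OPT. COB, for cytochrome b, was at 0.22, 0.07 and 0.26 in NC and at 1.19, 1.80 and 0.28 in OPT. In both genes OPT replicates 1 and 2 were high and OPT replicate 3 was near NC, and OPT replicates 1 and 2 also had the 2 highest shares of ribosomal RNA rows. OLI1, for a subunit of the ATP synthase, was the only one of 7 above the filter, and it did not pass (0.28, 0.53 and 1.28 RPKM against 2.50, 4.89 and 0, adjusted p = 0.453). The part of the ribosomal RNA share in these values was not tested.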

How the data were processed

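Normalized RPKM for each gene in each library were deposited by the authors in 1 table, as its header names them. Per the labels' protocols, a TruSeq RNA kit was used on total RNA, and the submitters' processing notes name CASAVA 1.8.0, Bowtie, TopHat and build R64. The sources used here state neither the counting method, nor use of strand, nor the normalization. A library's values add up to between 999285 and 999421, so a value is a share.

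Left out were 3 emptied lines and 1 repeated row with shifted values. Columns were matched to samples by library name. Of 6347 rows, including 2 for cdt-1, 5992 matched RefSeq's R64 annotation, all 66 genes described among them; coordinates are RefSeq's spans. Values rounded to 2 decimals, times gene length, fell on whole multiples of a step for 98.2 to 100% of the 44 to 74 low values used in a library, with a tolerance of 0.15 reads, which gave the depth estimate. No count test was run.

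The test was limma 3.58.1 (R 4.3.3) on log2(RPKM + 1) of features averaging 1 RPKM or more (trend, two-sided, NC against OPT, no covariates, Benjamini-Hochberg over the table, both cdt-1 rows in the fit but not counted). P-values set the difference between strains against the spread within strains in these 6 libraries, moderated over all features. In 10 simulated sets of this comparison (5984 features, 200 changed) the fit found 56% of the changes sized 0.5 and 86.4% of those sized 1 on the log2 scale, and 4.75% of calls were false. The simulated noise was independent for each gene and library. In the real libraries sets of genes shifted together and a larger share of features was called, so these rates need not hold for them. Python 3.11.15, pandas 2.3.3, numpy 2.4.6 and matplotlib 3.10.9 were used.

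The members, gene lists and rules were chosen with earlier results of these data known. Named members are those called, the 5 most and least abundant, the 5 largest rises and falls, and 5 set by name, with others named for their place in a sentence after their values were seen. Of the other lists, called genes or else the most abundant are named, plus a few chosen after their values were seen. Sequences, promoters and 3′ ends were not analysed here.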

Additional observations from a re-analysis of the deposited data

How the results depend on the processing

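Of the 66 genes, 6 were called with arrayWeights, with protein-coding genes only, with a pseudocount of 0.1 and with the filter at 10 RPKM or removed, the same 6 in each. The count was 7 with quantile normalization, of which 5 were shared, and 5 with equal library medians and with a common prior variance. Leaving out 1 library moved the count between 0 and 6. It was 3 without NC replicate 1 or OPT replicate 1, 4 without NC replicate 2 and 6 without NC replicate 3. It was 0 without OPT replicate 2 and 1, MRP2, without OPT replicate 3. Without OPT replicate 2, limma gave 6 of the 66 an unadjusted p under 0.05. The share of all features at that p in this setting is not given here. The share of all features called, 19.1% in the main fit, moved as well. It was 8.08, 6.04 and 8.78% without OPT replicates 1, 2 and 3, and 16.8, 14.2 and 32.6% without NC replicates 1, 2 and 3. With arrayWeights, where 6 of the 66 were called, it was 28.2%. It was 17.1% with quantile normalization, 16.1% with equal library medians and 18.3% with a common prior variance. In the remaining settings it lay between 17.2 and 20.4%. No called gene changed sign in any of the 14 alternatives. The signed median was 0.043 with quantile normalization and 0.037 with equal medians, in place of -0.023, and between -0.06 and 0.00 without 1 library. The difference in the share of all RPKM, -0.0074 percentage points, ran from -0.0244 without OPT replicate 1 to 0.0014 without OPT replicate 2. The cause of these changes was not tested. No paired analysis was possible because the labels give no replicate numbers shared between strains. At the value with the fewest reads, an estimated 563, counting error is 4.21%. The median coefficient of variation between libraries was 5.18% in NC and 5.49% in OPT.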
